A study of Caenorhabditis elegans with 6 samples.

Results

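Lysosomal acid lipases cleave stored fat inside the lysosome, and in Caenorhabditis elegans the genes lipl-1 to lipl-5 have been placed under a pair of opposing transcription factors. MXL-3, a Max-like basic helix-loop-helix protein, is known to repress these lipases in fed worms. HLH-30, the worm counterpart of mammalian TFEB, is known to activate them on fasting, along with genes of autophagy. The lipases act mainly in the intestine, which is the fat depot of the worm.

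The 7 genes described here are mxl-3, hlh-30 and the 5 lipases lipl-1, lipl-2, lipl-3, lipl-4 and lipl-5, out of 46950 rows in the deposited table, of which 20845 had a value above 0 in at least 1 library. They were found by gene name, and all 7 were present. They were chosen by their THz and Control FPKM values in these same libraries, beside their known roles, so the differences between the groups are given as a description, with their SE, and no result is drawn for them from the test across all genes.

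The study compared 3 THz libraries, from worms exposed to terahertz radiation, with 3 Control libraries. The series title gives 0.26 THz. RNA was taken from whole bodies and polyadenylated RNA was sequenced. The labels state neither strain, stage nor feeding state, and neither power nor duration of exposure. They also do not tell whether replicate libraries are separate cultures, so p-values cover only the variation among these 6 libraries, possibly technical.

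FPKM is the number of reads divided by gene length and by library depth. The depth recovered from the values was 19079440 to 20789498 reads in the THz libraries and 20308269 to 21977418 in the Control libraries. Correlations of log2(FPKM + 1) over 12174 genes lay between 0.989 and 0.992 among the THz libraries, against 0.946 to 0.984 among the Control libraries, where Control 2 and Control 3 stood farthest apart. The log2 difference of each member that was fitted is also given without Control 2 and without Control 3, while sums, ratios and shares are given per library. No gene of the 12174 passed limma at an adjusted p under 0.05 (0.0% called in either direction), while the unadjusted p was under 0.05 for 714 genes, or 5.86% (4.01% lower and 1.86% higher after THz). The smallest adjusted p was 0.269 with limma, and voom on recovered reads called none either, with 774 genes under 0.05 before adjustment.

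The repressor gene mxl-3 was the 1 member whose groups did not overlap. Its 4 exons span positions 13349639 to 13350804 on the minus strand of chromosome X (build WBcel235). It measured 30.7, 21.6 and 23.1 FPKM in the THz libraries, against 43.1, 56.9 and 33.3 FPKM in the Control libraries. All 3 THz libraries were low, but the highest of them lay only 7.91% under the lowest Control library, Control 3. These values rest on 590, 423 and 485 reads after THz, against 883, 1208 and 738 reads in Control. The mean was 25.1 ± 4.86 FPKM in THz and 44.5 ± 11.9 FPKM in Control worms (SD, n = 3 each), so that the THz mean was 56.5% of the Control mean. The log2 difference, THz minus Control, was -0.78 ± 0.21 (SE). Without Control 2, the highest library, the difference was -0.59, and without Control 3 it was -0.97. Over all genes tested, 7.33% had every THz library below every Control library, and 6.44% had every one above. In whole-worm RNA, fewer cells that express a gene and less RNA per cell cannot be told apart.

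The activator gene hlh-30 did not separate the groups. It spans positions 4014799 to 4034784 of chromosome IV, also on the minus strand, with 13 annotated transcripts and a pair of noncoding genes inside its introns. It measured 36.6, 44.2 and 36.7 FPKM in the THz libraries, against 43.7, 29.2 and 55.7 FPKM in the Control libraries. The THz values all lay between Control 2, the lowest library, and Control 3, the highest. The means were 39.2 ± 4.35 FPKM in THz and 42.9 ± 13.3 FPKM in Control worms (SD, n = 3 each), -0.09 ± 0.22 (SE) apart on the log2 scale. That difference was -0.33 without Control 2 and 0.12 without Control 3, so its direction turned with 1 library.

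**Figure D1:**
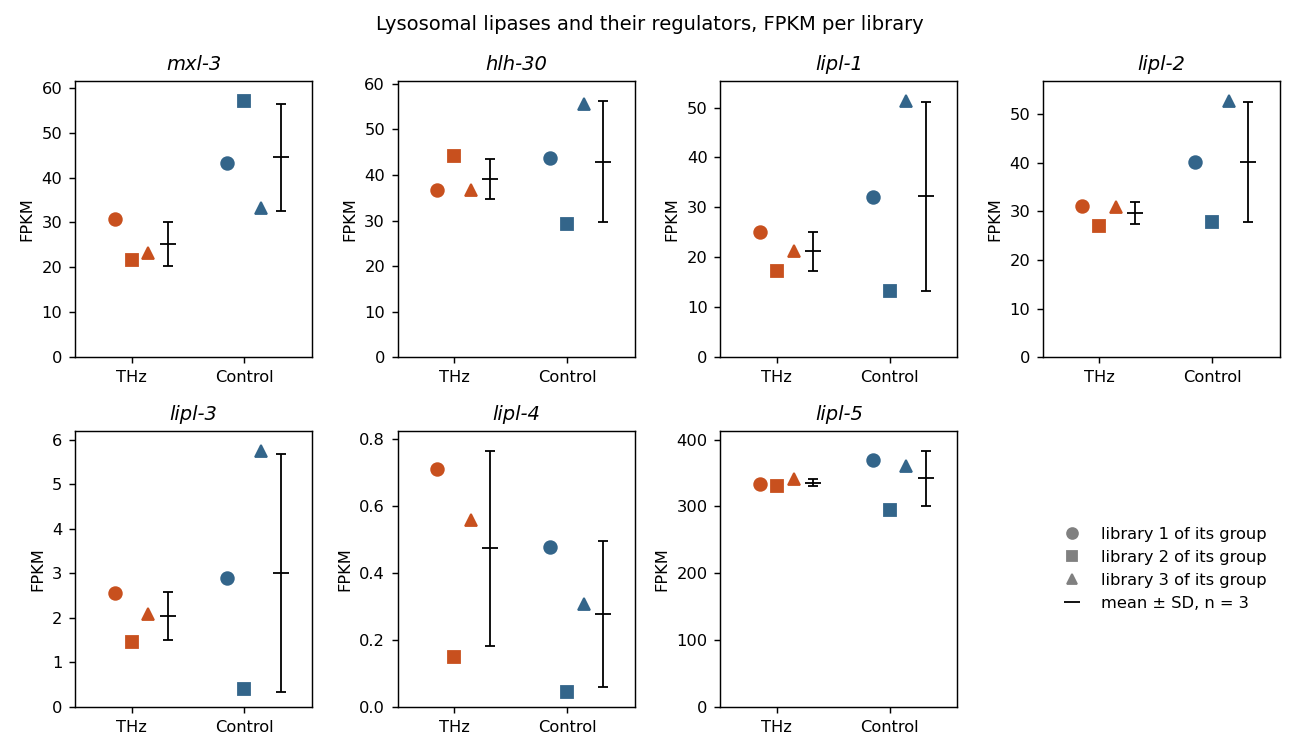
FPKM of the 7 genes in each library, with THz on the left of each panel and Control on the right, each y axis starting at 0; symbols mark the library number within its group and black bars the mean ± SD of 3 libraries. In mxl-3 the 3 THz values (21.6 to 30.7 FPKM) lie under the 3 Control values (33.3 to 56.9 FPKM), and in the other genes the groups overlap, with Control 2 the lowest Control library.

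Opposite orders of mxl-3 and hlh-30 appeared within both groups. Among the Control libraries mxl-3 was highest in Control 2 and lowest in Control 3, while hlh-30 was highest in Control 3 and lowest in Control 2. Among the THz libraries mxl-3 was highest in THz 1 and lowest in THz 2, and hlh-30 was highest in THz 2 and lowest in THz 1, where it stood close to THz 3. Such orders were common. Over all genes tested, the Control order of hlh-30 was found in 30.2% and its THz order in 30.7%. Those of mxl-3 were found in 19.3% and 14.4%. The ratio of hlh-30 FPKM to mxl-3 FPKM was 1.19, 2.05 and 1.58 in the THz libraries, against 1.014, 0.513 and 1.67 in the Control libraries. The groups overlapped in this ratio, since Control 3 lay above THz 1 and THz 3. Control 2 was the 1 library of 6 in which mxl-3 exceeded hlh-30. Levels between these genes depend on the length used, which is 1008 bases for mxl-3 and 2328 bases for hlh-30 in the table, where current annotation gives 3268 exon bases for hlh-30 over all its transcripts.

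All 5 lipase genes lie on chromosome V, but not as a cluster. In order along the chromosome they are lipl-5 (385713 to 388090), lipl-3 (521702 to 524218), lipl-4 (6550171 to 6551817), lipl-2 (9791567 to 9793234) and lipl-1 (12919952 to 12921692). The closest pair, lipl-5 and lipl-3, is separated by 133611 bases and 49 annotated genes. The annotation places lipl-3 on the minus strand and the other 4 on the plus strand. Of the 5 lipases, lipl-4 alone overlaps another annotated gene, the noncoding K04A8.15 on the opposite strand, with which it shares 120 exon bases, and TruSeq RNA v2 libraries do not keep strand.

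The lipase lipl-1, which has been described as induced by fasting, measured 25.1, 17.3 and 21.3 FPKM in the THz libraries, against 32.1, 13.2 and 51.2 FPKM in the Control libraries. Control 1 and Control 3 were above all THz libraries and Control 2 was below them, so the THz values sat inside the Control range. The means were 21.2 ± 3.89 FPKM in THz and 32.2 ± 19.0 FPKM in Control worms (SD, n = 3 each). On the log2 scale the difference came to -0.40 ± 0.42 (SE). Without Control 2 this was -0.92, and without Control 3 it was 0.02. A single Control library therefore decided both its size and its sign.

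The paralog lipl-2 was high in the same Control libraries as lipl-1. It measured 30.99, 26.98 and 30.8 FPKM in the THz libraries, against 40.1, 27.9 and 52.6 FPKM in the Control libraries. THz 2 lay just under Control 2, and the other 2 THz libraries lay between Control 2 and Control 1. Means were 29.6 ± 2.27 FPKM in THz and 40.2 ± 12.3 FPKM in Control worms (SD, n = 3 each), and on the log2 scale they differed by -0.39 ± 0.21 (SE). The difference stayed below 0 whichever library was left out, from -0.62 without Control 2 to -0.17 without Control 3.

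The lipl-3 gene, also described as induced on fasting, was expressed at a low level. It measured 2.56, 1.47 and 2.098 FPKM in the THz libraries, against 2.89, 0.393 and 5.75 FPKM in the Control libraries. Behind these values stood 65, 38 and 58 reads after THz, and 78, 11 and 168 reads in Control. The THz libraries again lay inside the Control range, with Control 2 at the bottom and Control 3 at the top. Its log2 difference was -0.14 ± 0.53 (SE), with -0.77 without Control 2 and 0.37 without Control 3. On a scale with less damping of low values, log2(FPKM + 0.1), it was 0.03, so no direction can be read for lipl-3.

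Expression of lipl-4, the lipase whose overexpression is known to extend lifespan in worms, was close to the limit of detection. It was listed at 0.710, 0.149 and 0.558 FPKM in the THz libraries, against 0.476, 0.0459 and 0.308 FPKM in the Control libraries. These were 14, 3 and 12 reads after THz and 10, 1 and 7 reads in Control. The groups overlapped, and lipl-4 was the 1 member that did not reach 1 FPKM in at least 3 libraries and so was not fitted.

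The most abundant lipase was lipl-5, at 334, 330.4 and 340.9 FPKM in the THz libraries, against 369.9, 295 and 360.4 FPKM in the Control libraries. The THz libraries were nearly equal, with the highest 1.03 times the lowest, and all lay inside the Control range. The means were 335 ± 5.32 FPKM in THz and 342 ± 40.7 FPKM in Control worms (SD, n = 3 each), -0.02 ± 0.10 (SE) apart on the log2 scale. Its sign changed with the Control library left out, from -0.12 without Control 2 to 0.02 without Control 3 and 0.04 without Control 1.

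Ordered by mean FPKM after THz, lipl-5 came first, followed by hlh-30, lipl-2, mxl-3, lipl-1, lipl-3 and lipl-4. In the THz libraries the ranges of lipl-2 and mxl-3 overlapped, as did those of mxl-3 and lipl-1, and the other neighbours were apart. In the Control libraries mxl-3 stood next after lipl-5, at 44.5 ± 11.9 FPKM, followed by hlh-30 at 42.9 ± 13.3, lipl-2 at 40.2 ± 12.3 and lipl-1 at 32.2 ± 19.0 FPKM (SD, n = 3 each). Those 4 genes overlapped with their neighbours in that order. By its mean, the place of mxl-3 thus differed, below lipl-2 after THz and above hlh-30 in Control. Within single Control libraries mxl-3 exceeded hlh-30 in only 1 of 3, which was Control 2. By contrast, hlh-30 exceeded lipl-2, and lipl-2 exceeded lipl-1, in 3 of 3 Control libraries. Of the summed FPKM of the 5 lipases, lipl-5 made up 84.9%, 87.8% and 86.2% in the THz libraries, against 83.0%, 87.7% and 76.6% in the Control libraries. The lower share in Control 3 went with the high lipl-1 and lipl-2 of that library.

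The spread among the Control libraries had a common shape in 4 of these genes. Control 3 was above Control 1 and Control 1 above Control 2 in hlh-30, lipl-1, lipl-2 and lipl-3, which are 4 of the 7 members, where 30.2% of all genes tested showed this order. The reverse order, with Control 2 highest, was seen in mxl-3 and in 19.3% of all genes tested. In lipl-4 and lipl-5 Control 1 was highest and Control 2 lowest. The difference between Control 3 and Control 2 was largest for lipl-3, whose FPKM was 14.6 times as high in Control 3 (95% interval 7.97 to 29.9 from the reads, exact, for counting error only). For lipl-1 the ratio was 3.88 (3.47 to 4.35), for hlh-30 1.91 (1.79 to 2.03) and for lipl-2 1.89 (1.73 to 2.06). It was 1.22 for lipl-5 (1.19 to 1.26) and 0.585 for mxl-3 (0.533 to 0.642). The reads recovered for hlh-30 and lipl-5 did not come out whole in any library, so their read numbers, and with them these intervals, are approximate. On the log2 scale the gap of lipl-3 exceeded that of 98.7% of the genes tested and the gap of lipl-1 that of 97.4%, whereas lipl-5 lay at 47.9%.

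**Figure D2:**
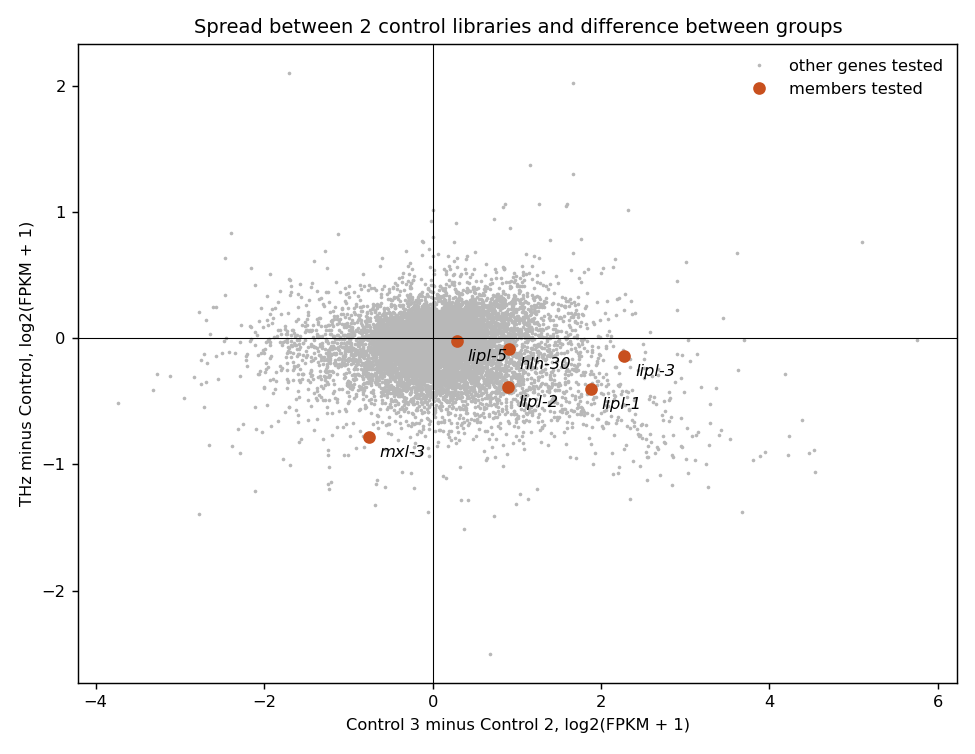
Each point is 1 of the genes tested; the x axis is Control 3 minus Control 2 and the y axis THz minus Control, both in log2(FPKM + 1), with the 6 members that reached the FPKM filter in orange. The lipases lipl-1 and lipl-3 lie far to the right (1.88 and 2.28), with group differences of -0.40 and -0.14, while mxl-3 lies to the left with a group difference of -0.78.

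The THz libraries were closer together. Their SD on the log2 scale was 0.26 for lipl-1 against 0.95 among the Control libraries, and 0.27 against 1.16 for lipl-3. For mxl-3 these SDs were 0.26 in THz and 0.38 in Control, and for lipl-5 they were 0.02 and 0.18. Of the 7 members, 6 varied less among THz than among Control libraries, lipl-4 being the exception, and 79.1% of all genes tested did so too. The exception of lipl-4, at few reads, depends on the scale. In FPKM its highest Control library was 10.4 times its lowest, against 4.75 times among the THz libraries. Within the THz group, THz 1 was highest and THz 2 lowest in mxl-3, lipl-1, lipl-2, lipl-3 and lipl-4. That order was found in 14.4% of all genes tested, and together with the Control order of lipl-1, lipl-2 and lipl-3 in 3.73%. Thus mxl-3 and the 3 lipases lipl-1, lipl-2 and lipl-3 had the same order among the THz libraries and opposite orders among the Control libraries. The margin of THz 1 over THz 3 was small in lipl-2, at 30.99 against 30.8 FPKM. It rested on 65 against 58 reads in lipl-3 and on 14 against 12 reads in lipl-4. The order of these 2 libraries is therefore uncertain in lipl-2, lipl-3 and lipl-4.

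**Figure D3:**
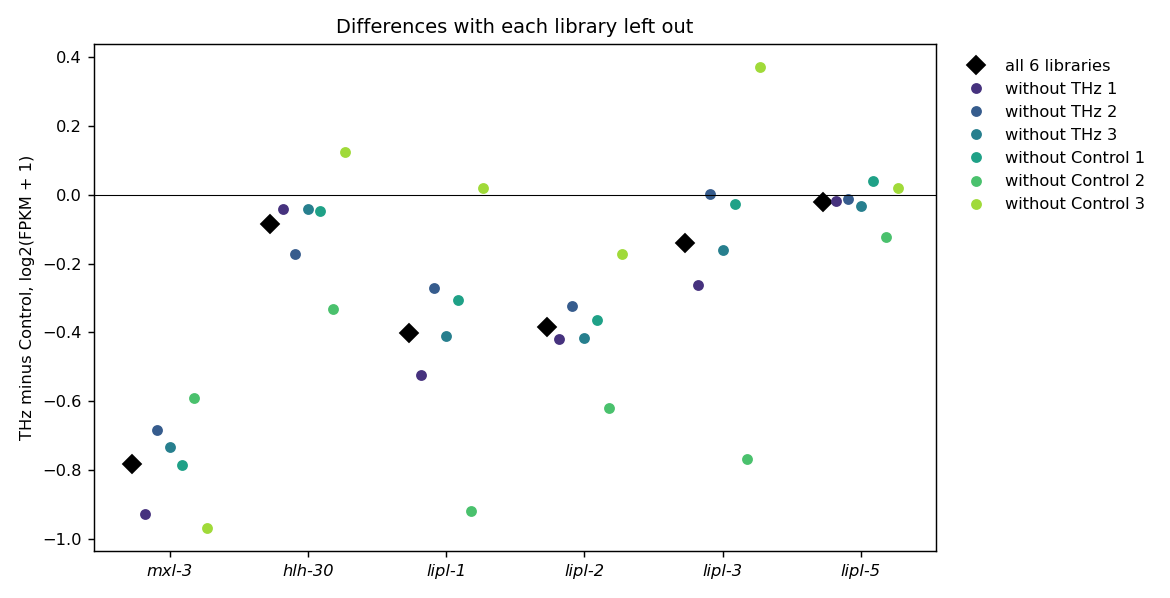
THz minus Control difference in log2(FPKM + 1) for the 6 members that reached the FPKM filter, with all 6 libraries (black diamonds) and with each library left out in turn (coloured points). The mxl-3 values stay between -0.97 and -0.59, and those of lipl-1 run from -0.92 without Control 2 to 0.02 without Control 3.

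The ratio of lipl-1 FPKM to mxl-3 FPKM was 0.819, 0.803 and 0.919 in the THz libraries, against 0.745, 0.232 and 1.54 in the Control libraries. The THz libraries were close to each other and lay between Control 1 and Control 3. Lipases other than lipl-5 summed to 59.4, 45.9 and 54.7 FPKM after THz, against 75.6, 41.5 and 109.8 FPKM in Control. Here too all THz libraries were below Control 1 and Control 3 and above Control 2. In 4 of the 7 members every THz library lay inside the Control range, as in 41.7% of all genes tested.

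**Figure D4:**
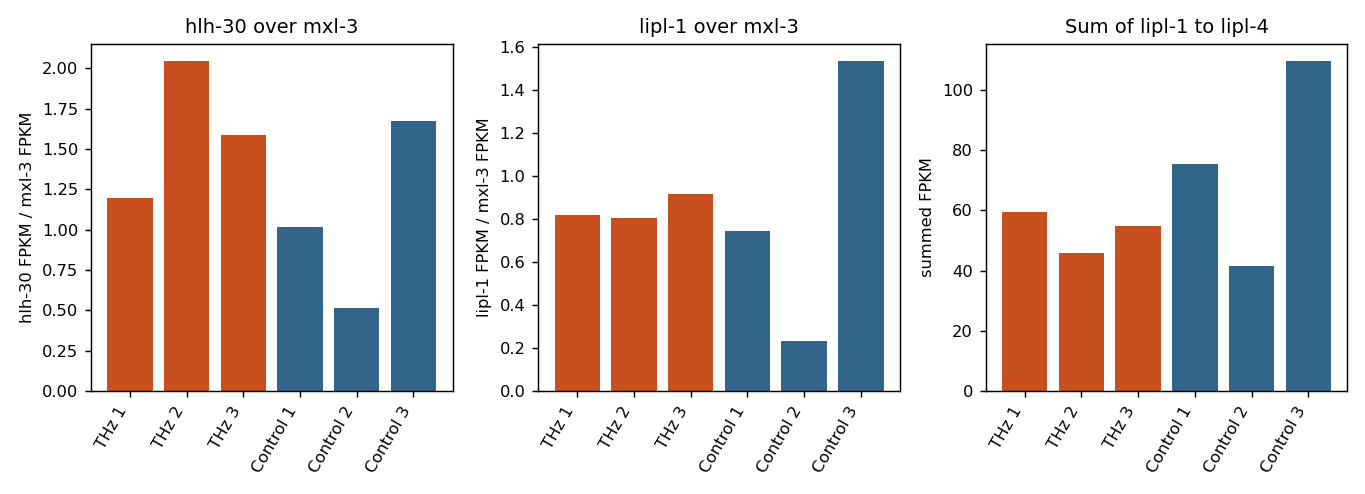
Per library, with THz in orange and Control in blue: the ratio of hlh-30 to mxl-3 (left), the ratio of lipl-1 to mxl-3 (middle) and the summed FPKM of lipl-1 to lipl-4 (right), each from 0. Control 2 has the lowest value in all 3 panels (0.513, 0.232 and 41.5 FPKM), and Control 3 is the highest in the middle and right panels.

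Some tissue markers followed the order of lipl-1, lipl-2 and lipl-3 among the Control libraries and others did not. The 15 intestine markers summed to between 15566 and 17104 FPKM in the THz libraries. Their sum was 17875 in Control 1, 13584 in Control 2 and 19563 in Control 3, which was 1.44 times that of Control 2. Most of each sum came from the vitellogenin genes vit-2 and vit-6. These measured 4416 and 6667 FPKM in Control 2, against 5807 and 8135 FPKM in Control 3. The sums therefore say little about the less abundant markers. Of the 15 markers 11 were higher in Control 3 than in Control 2 and 4 were lower, a split that was not counted over all genes. The full Control order of lipl-1 was found at 7 of 15, against 30.2% of all genes tested. The widest gap was at the cathepsin B-like protease gene cpr-1, picked out after its values were seen, with 920.4, 719.7 and 844.7 FPKM after THz, against 1204, 51.9 and 1811 FPKM in Control. The acid phosphatase gene pho-1 ran the other way, at 24.8, 23.1 and 23.01 FPKM after THz, against 21.9, 33.96 and 16.6 FPKM in Control, and the gut esterase gene ges-1 was nearly level in Control, at 16.4, 14.7 and 12.5 FPKM after THz, against 15.5, 16.05 and 15.7 FPKM. Hypodermis, cuticle and moulting markers, 9 genes, summed to between 127 and 159 FPKM after THz. Their sums were 158.7, 99.2 and 225 FPKM in Control 1, Control 2 and Control 3. The largest part of each sum was lin-26, at 67.1 FPKM in Control 2 and 90.7 FPKM in Control 3. Of these 9 markers 7 were higher in Control 3 than in Control 2 and 2 were lower. Sperm markers, 6 genes, had their lowest sum in Control 3. These sums were 27.5 to 45.2 FPKM after THz, against 44.7, 49.8 and 20.03 FPKM in Control. Of the 6 sperm markers 1 was higher in Control 3 than in Control 2 and 5 were lower. The sum over 6 neuron markers was 1.05 times as high in Control 3 as in Control 2, and that over 8 germline markers 1.00 times. Most of the neuron sum was snb-1, at 246 FPKM in Control 2 and 255 FPKM in Control 3. Of the 6 neuron markers 4 were higher in Control 3 than in Control 2 and 2 were lower. For the 8 germline markers the split was 3 higher and 5 lower. No marker of these lists was at 0 in any library. The part of intestine, moulting or sperm content in the lipase values was not tested.

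Muscle and germline sums stand beside the mxl-3 values. The 6 body wall muscle markers summed to 1142, 1352 and 1269 FPKM after THz, against 1561, 1866 and 1316 FPKM in Control, so THz 2 lay above Control 3 and the groups overlapped. All 6 had a log2 difference below 0, as had 49.5% of all genes tested, 3 had every THz library below every Control library, against 7.33%, and 0 passed limma. The Control order of mxl-3 was found at 4 of the 6, against 19.3% of all genes tested. It was not found at the myosin gene myo-3 nor at hlh-1, a muscle transcription factor gene. The 8 germline markers summed to 2728, 2649 and 2713 FPKM after THz, against 2369, 2449.7 and 2449 FPKM in Control, higher in every THz library. Most of each sum was gld-1 and mex-5, at 862 and 879 FPKM in THz 1 and at 721 and 783 FPKM in Control 1. Of the 8, 4 had every THz library above every Control library, against 6.44% of all genes tested, and 0 passed limma. The part of muscle or germline content in the mxl-3 values was not tested.

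The other genes of the pathway were read from 9 lists, with 144 genes named, 141 in the table and 133 tested. None passed limma at an adjusted p under 0.05, in either direction, against 0.0% of all genes tested, and before adjustment 6 genes were lower and 1 was higher at a p under 0.05. Every THz library was below every Control library at 8 of these genes, against 7.33% of all genes tested, and above at 6, against 6.44%. When limma weighted the libraries by their quality, it called 23 pathway genes beside 25.4% of all genes.

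Among the other Max and Mad genes, mdl-1 was low in every THz library. MDL-1 is a Mad-like repressor that pairs with MXL-1 and opposes the activator pair MML-1 and MXL-2. The gene measured 51.9, 37.8 and 43.5 FPKM in the THz libraries, against 65.4, 69.3 and 70.7 FPKM in the Control libraries. The groups were apart and Control 2 was not set off from the other Control libraries. The log2 difference was -0.62 ± 0.12 (SE), which did not pass limma over all genes (adjusted p = 0.612, lower in 3 of 3 libraries). Without Control 2 it was -0.62 with an adjusted p of 0.0459 in limma, and it ran from -0.74 to -0.52 when each library was left out. Within the THz group mdl-1 followed the order of mxl-3, highest in THz 1 and lowest in THz 2. The partner genes overlapped between the groups. The mxl-2 gene averaged 88.4 ± 5.48 FPKM in THz and 81.4 ± 9.29 FPKM in Control worms, and mml-1 averaged 13.3 ± 1.11 FPKM in THz and 14.8 ± 3.44 FPKM in Control worms (SD, n = 3 each).

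In the rest of the lipase family, lipl-7 was steady, at 14.1, 14.4 and 14.3 FPKM after THz, against 12.6, 14.1 and 15.3 FPKM in Control. The lipl-6 gene had 9, 16 and 18 reads after THz and 38, 9 and 56 reads in Control, the same order of Control libraries as lipl-1. The lipl-8 gene had 4 reads in THz 1 and none in the other 5 libraries. Neither lipl-6 nor lipl-8 reached the level needed for the test.

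Autophagy genes, which HLH-30 is known to activate, had a median log2 difference of 0.04 over 26 tested genes, against 0.00 over all genes. Of these 26 genes 0 passed, 12 had a difference below 0 and 14 above. The smallest p in the list belonged to epg-3, the homolog of mammalian VMP1, at 31.1, 31.8 and 30.7 FPKM after THz, against 25.6, 22.1 and 28.8 FPKM in Control. Its THz libraries were all higher, by 0.29 ± 0.11 (SE) on the log2 scale, without passing limma (adjusted p = 0.827). The conjugating enzyme gene atg-3 also had all THz libraries above Control, at 81.9 ± 0.963 FPKM in THz and 76.5 ± 3.78 FPKM in Control worms, and atg-7, which encodes the activating enzyme, averaged 34.3 ± 2.16 and 31.2 ± 4.47 FPKM in THz and Control worms (SD, n = 3 each), with overlap. The order of the Control libraries seen in hlh-30 was found at 17 of the 26 autophagy genes, against 30.2% of all genes tested. It was also found at 11 of 21 nutrient signalling genes, 7 of 14 fasting genes and 7 of 8 tested hypodermis, cuticle and moulting genes. Lysosomal hydrolase and membrane genes were near the 30.2% of all genes, at 10 of 29. Cytosolic lipolysis and lipid droplet genes had it at 3 of 11, lipid chaperone and signalling genes at 2 of 13. The other Max and Mad genes had it at 1 of 4.

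Lysosomal hydrolase and membrane genes had a median difference of -0.01 over 29 tested genes, of which 0 passed. The acid sphingomyelinase gene asm-3 was lower in every THz library, at 30.98 ± 2.40 FPKM in THz and 38.2 ± 4.08 FPKM in Control worms, and the intramembrane protease gene imp-2 was higher in each, at 144.9 ± 8.37 FPKM in THz and 127 ± 10.3 FPKM in Control worms (SD, n = 3 each). The transporter gene spin-2 overlapped, at 2.52 ± 0.571 FPKM in THz and 3.42 ± 0.430 FPKM in Control worms. Genes of nutrient signalling and of HLH-30 localization had a median of 0.08 over 21 tested genes, of which 0 passed. The exportin gene xpo-1, whose product is known to carry HLH-30 out of the nucleus, averaged 210.1 ± 12.9 FPKM in THz and 185 ± 30.6 FPKM in Control worms, with overlap. The Rag GTPase gene raga-1, which acts upstream of TOR, averaged 72.3 ± 0.802 FPKM in THz and 68.3 ± 1.46 FPKM in Control worms (SD, n = 3 each), and its groups did not overlap. The nprl-2 gene, for a subunit of the complex that restrains TOR, averaged 34.1 ± 2.22 FPKM in THz and 30.4 ± 3.99 FPKM in Control worms, with overlap.

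Genes of cytosolic lipolysis and of lipid droplets, outside the lysosome, gave a median of -0.04 over 11 tested genes, of which 0 passed. The protein kinase A catalytic subunit gene kin-1 was lower in every THz library, at 35.4 ± 2.97 FPKM in THz and 41.6 ± 1.68 FPKM in Control worms (SD, n = 3 each), and kin-2, the regulatory subunit, averaged 39.8 ± 3.75 FPKM in THz and 48.2 ± 4.63 FPKM in Control worms, with overlap. The triglyceride synthesis gene dgat-2 averaged 4.57 ± 1.27 FPKM in THz and 9.77 ± 6.16 FPKM in Control worms, with Control 2 at 16.7 FPKM, and its log2 difference of -0.82 was -0.39 without that library. The triglyceride lipase gene atgl-1, outside the naming rule, lay at 59.96, 62.03 and 62.02 FPKM after THz, inside its Control values of 59.2, 54.1 and 68.1 FPKM.

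Lipid chaperone and lipid signalling genes had a median of -0.06 over 13 tested genes, of which 0 passed. The fatty acid binding protein genes lbp-2, lbp-9 and lbp-5 had the smallest p of this list. They averaged 308 ± 29.6, 455 ± 29.4 and 12.5 ± 1.38 FPKM in THz worms, against 361 ± 30.5, 394 ± 53.8 and 16.14 ± 4.63 FPKM in Control worms (SD, n = 3 each), and all 3 overlapped. The lbp-8 gene, whose product is known to carry a signal from LIPL-4 to the nucleus, was below 1 FPKM in all libraries except THz 2, at 1.24 FPKM.

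Fasting response genes had a median of -0.13 over 14 tested genes, of which 0 passed. Of the 14, 9 had a difference below 0, against 49.5% of all genes tested, and 5 had one above. In 3 of the 14 every THz library was below the Control libraries, against 7.33% of all genes tested. The list does not separate genes by how they change on fasting, so its median gives no direction for a fasting response. The gluconeogenesis gene pck-1 measured 127, 127 and 129 FPKM in the THz libraries, against 192, 157 and 184 FPKM in the Control libraries. The THz values were nearly equal, and the groups were apart, with a log2 difference of -0.47 ± 0.09 (SE) that did not pass limma over all genes (adjusted p = 0.612, lower in 3 of 3 libraries). The desaturase gene fat-6 averaged 293 ± 4.82 FPKM in THz and 359 ± 45.7 FPKM in Control worms, and hlh-11, for a repressor of fat breakdown, averaged 40.3 ± 2.03 FPKM in THz and 45.5 ± 3.10 FPKM in Control worms (SD, n = 3 each). Without Control 2, limma called 5 pathway genes, all lower after THz, beside 1.92% of all genes, of which 223 were lower and 11 higher. The 5 were mdl-1, pck-1, fat-6, the glyoxylate cycle gene icl-1 and the flavin monooxygenase gene fmo-2. For icl-1 the THz libraries measured 140.3 to 145.8 FPKM, above the 106 FPKM of Control 2, and for fmo-2 they measured 1.84 to 3.59 FPKM, above its 0.425 FPKM. These 2 genes are named outside the rule, after their values were seen.

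**Figure D5:**
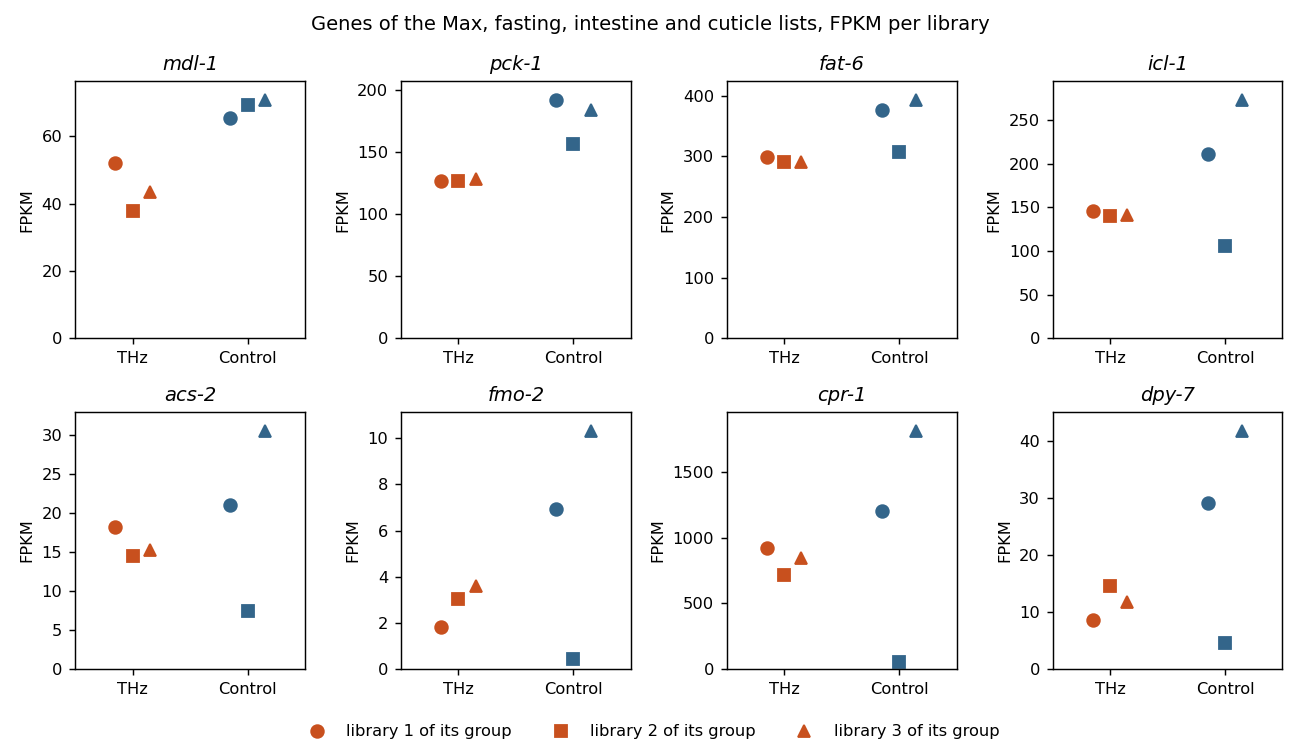
FPKM per library of 8 genes from the Max, fasting, intestine and cuticle lists, with THz left and Control right and each y axis from 0; icl-1, acs-2, fmo-2, cpr-1 and the cuticle collagen gene dpy-7 were chosen after their values were seen. In mdl-1, pck-1 and fat-6 every THz library lies under every Control library, and in the other 5 genes Control 2 is the lowest library and Control 3 the highest.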

How the data were processed

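The authors deposited 1 table of FPKM values, 1 per gene and library, with each gene's position, length and name. STAR, HTSeq 0.5.4 and DESeq 1.10.1, with the build WBcel235, are listed without role or order, per the submitters' processing notes. Per the labels, TRIzol was used for extraction and a TruSeq RNA v2 kit for library construction. FPKM times length came out as whole reads, within 0.05 reads, for 88.8% of values above 0. Those reads served for depth, counting intervals and 1 alternative test.

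Genes reaching 1 FPKM in 3 or more of the 6 libraries were tested with limma 3.58.1 in R 4.3.3 (mean-variance trend, log2(FPKM + 1), two-sided, Benjamini-Hochberg over 12174 genes). This scale understates changes of low genes. The script was checked on simulated reads, with the same spread set for every library. That check does not show what the test can detect at the wider spread of these Control libraries. An exact permutation test of 3 against 3 libraries cannot go below p = 0.1. No pair of libraries agreed within sampling noise.

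The members and lists were chosen with earlier results of these data known. Beside the members, the naming rule took up to 3 genes per list with the smallest p, and the 3 genes most like each member. Planned searches of promoter motifs and comparisons of proteins were not run. Strands and overlaps come from the Ensembl annotation of the same build. Figures used matplotlib 3.10.9.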

Additional observations from a re-analysis of the deposited data

How the results depend on the processing

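Over 16 other settings, the log2 difference of mxl-3 stayed between -0.97 and -0.59 and that of lipl-2 between -0.62 and -0.17. The sign turned in 1 setting each for hlh-30 and lipl-1, in 2 for lipl-5 and in 4 of 15 for lipl-3, and each of these 4 genes turned without Control 3. The count of genes called was 0 with other pseudocounts, filters and scalings, without the trend and with voom. Library weights called 3092 genes, 23 of them in the pathway lists, and the cause was not tested. Leaving out 1 library gave 0 to 234 genes, and 0 to 5 pathway genes, with calls made without Control 2. The log2 difference of mml-1, -0.13 with all libraries, was 0.0157 with library weights and ran from -0.22 without Control 2 to 0.0472 without Control 3. That of lipl-7, 0.03 with all libraries, ran from -0.0378 without Control 1 to 0.0927 without Control 3. With the replicate block 0 genes were called, with 532 at an unadjusted p under 0.05, and libraries of the same number did not deviate together (correlations of -0.01, -0.14 and 0.03). Promoter motifs were not searched. Low reads limit lipl-3 and lipl-4.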

Other observations

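Genes whose log2(FPKM + 1) followed a member most closely, by the Pearson coefficient over the 6 libraries, are given as a description. All genes share these libraries and the gap between Control 2 and Control 3. A coefficient of 0.9 was exceeded by 127 genes with mxl-3, 447 with lipl-3 and 853 with hlh-30. Those nearest to mxl-3 were W01B11.6, dhs-9 and bcmo-2. The carotenoid oxygenase-like gene bcmo-2 measured 3.40, 2.90 and 3.03 FPKM in the THz libraries, against 4.86, 6.13 and 3.83 FPKM in the Control libraries, so it too had all THz libraries low and Control 2 highest. The short-chain dehydrogenase gene dhs-9 measured 23.4, 21.4 and 22.3 FPKM after THz, against 26.5, 27.8 and 24.9 FPKM in Control.

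Nearest to lipl-3 were T20B3.1, F53F10.2 and pqm-1. The zinc finger transcription factor gene pqm-1 measured 28.9, 20.4 and 25.6 FPKM after THz, against 29.0, 11.9 and 43.7 FPKM in Control, with Control 2 lowest and Control 3 highest. Nearest to hlh-30 were scd-1, M01D1.12 and Y59C2A.3. The scd-1 gene measured 30.7, 37.7 and 31.6 FPKM after THz, against 37.8, 23.5 and 49.8 FPKM in Control.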
